A study of Mus musculus with 15 samples.

Results

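Fos, Fosb, Jun, Junb, Jund, Egr1, Ier2, Nr4a1, Atf3 and Dusp1, 10 immediate early genes, were followed across the 5 groups of a microarray study of mouse medulloblastoma. They were identified as every probe set that the platform annotation assigned to a single one of these genes, which gave 12 of the 45141 probe sets on the array. These stood for 10 of the 17097 genes measured, with 2 probe sets each for Jun and Jund and 1 for each other gene. Each gene was read from the probe set with the highest mean signal over the 15 arrays.

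RNA of dissociated cells was hybridised to one-colour Affymetrix arrays of the mouse genome, with 3 arrays in each group, and all values below are the authors' log2 signals unless called differences. Myc secondary tumours grew from cultured sphere cells of Myc primary tumours that were transplanted back into the brain. Myc primary tumours grew after cerebellar cells of Cdkn2c-/-, Trp53-/-, Atoh1-GFP mice had been infected with Myc and injected into the cerebral cortex of nude mice, hosts that lack T cells. Shh tumours were medulloblastomas that arose by themselves in Cdkn2c-/-; Trp53Fl/Fl; Nestin-Cre mice, in which the Nestin promoter drives Cre in neural progenitors. GFP-positive and GFP-negative cells were sorted by flow cytometry from cerebella of Cdkn2c-/-, Trp53-/-, Atoh1-GFP mice at postnatal day 6. All 5 groups thus carried losses of Cdkn2c and Trp53, and no group had both genes intact. The sample labels call the sorted populations spontaneous tumour while the design text calls them cerebellar cells, and the design text is followed here. Tumour cells were purified on Percoll gradients and cerebellar cells by sorting, so that preparation and tissue cannot be told apart between tumours and sorted cells. No label states if the 3 samples of each group were taken from different mice, so the p-values speak to the variation among these arrays, which may be technical.

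Immediate early genes are transcribed within minutes of a growth factor, calcium or stress signal and need no new protein synthesis for it. MAP kinases act on SRF with its ternary complex partners, and several kinases act on CREB, at sites in their promoters. Fos and Jun family proteins then pair as the transcription factor AP-1, Egr1 and Nr4a1 act as DNA-binding regulators, and Dusp1 removes phosphate from MAP kinases and so ends the signal. These genes are known in many tissues to respond to dissociation and handling as well.

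Promoter sequences of 8 of the 10 genes were taken from RefSeq (build GRCm38.p6), as the 250 bases before the annotated start of the transcript. Egr1 was left out of the search by choice, and no window was found for Ier2, so the motif counts below cover neither gene. The sequences are shown for Fos, Fosb, Nr4a1, Atf3 and Dusp1. The windows of these genes held the core of the cyclic AMP response element to which CREB binds. Jund, the gene with the smallest differences between groups, is shown as well, and its window held none. The window of Jun, not printed, held none either, while Jun differed by -2.57 in Myc secondary against Shh tumours. A link between the core and the differences was not tested. Capitals mark TGACG, the core, or CGTCA, the same core read from the other strand, and in Dusp1 the whole palindrome TGACGTCA. The windows lay at chr12:85473640-85473889, plus strand (Fos), chr7:19310046-19310295, minus strand (Fosb), chr15:101266596-101266845, plus strand (Nr4a1), chr1:191183334-191183583, minus strand (Atf3), chr17:26508473-26508722, minus strand (Dusp1) and chr8:70697489-70697738, plus strand (Jund). Each is written from the far end toward the start of transcription. The windows of Fosb and Nr4a1 lie in part or in whole inside the annotated span of the gene, which has other starts.
Fos: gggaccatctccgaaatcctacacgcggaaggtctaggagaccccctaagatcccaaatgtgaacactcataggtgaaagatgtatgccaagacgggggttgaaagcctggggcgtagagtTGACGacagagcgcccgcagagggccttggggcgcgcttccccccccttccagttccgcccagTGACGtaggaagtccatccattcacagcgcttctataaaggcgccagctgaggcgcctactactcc
Fosb: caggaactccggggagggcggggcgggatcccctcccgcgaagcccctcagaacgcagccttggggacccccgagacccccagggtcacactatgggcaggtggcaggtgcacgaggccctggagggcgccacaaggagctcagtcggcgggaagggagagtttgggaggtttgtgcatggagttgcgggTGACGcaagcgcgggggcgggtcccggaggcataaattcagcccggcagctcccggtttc
Nr4a1: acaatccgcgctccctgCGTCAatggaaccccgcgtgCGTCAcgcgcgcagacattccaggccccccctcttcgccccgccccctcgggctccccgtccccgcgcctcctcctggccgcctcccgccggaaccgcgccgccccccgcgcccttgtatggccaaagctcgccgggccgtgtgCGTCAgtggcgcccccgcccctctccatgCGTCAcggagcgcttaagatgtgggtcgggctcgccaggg
Atf3: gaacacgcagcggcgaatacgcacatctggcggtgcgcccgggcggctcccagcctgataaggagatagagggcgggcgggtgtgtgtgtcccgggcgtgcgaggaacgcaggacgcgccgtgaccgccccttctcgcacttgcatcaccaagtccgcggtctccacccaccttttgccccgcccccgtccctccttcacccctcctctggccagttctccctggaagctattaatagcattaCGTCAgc
Dusp1: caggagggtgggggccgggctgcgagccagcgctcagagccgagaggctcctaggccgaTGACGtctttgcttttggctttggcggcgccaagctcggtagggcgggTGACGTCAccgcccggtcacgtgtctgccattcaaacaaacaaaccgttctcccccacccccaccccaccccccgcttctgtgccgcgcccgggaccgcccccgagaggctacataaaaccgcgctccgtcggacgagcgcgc
Jund: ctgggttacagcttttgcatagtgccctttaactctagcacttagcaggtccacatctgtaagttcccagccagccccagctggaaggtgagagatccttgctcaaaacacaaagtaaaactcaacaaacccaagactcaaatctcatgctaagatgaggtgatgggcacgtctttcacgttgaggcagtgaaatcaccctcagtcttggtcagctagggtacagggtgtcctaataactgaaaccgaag

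Nr4a1 held 4 cores, all on the minus strand and each part of TGACGCA, at -233, -213, -69 and -40 relative to the start. Of 32851 promoter windows searched, 1 held TGACGCA 4 times or more, that of Nr4a1. The cut-off of 4 is the count of Nr4a1 itself, so this describes the window and is no test of rarity. Fos held the core at -129 and -66 and the TATA box letters TATAAA at -33. Atf3 held a core at -7, Fosb at -60 and Junb, not printed, at -106. Dusp1 held a core at -191 and the full TGACGTCA from -143 to -136. The core was thus in 6 of the 8 member windows and in 17.8% of all windows, TGACGTCA in 1 member (Dusp1) and 1.55%, and TGACGCA in 2 members (Fosb and Nr4a1) and 1.75%. The AP-1 site TGACTCA was in 0 of the 8 and in 4.46% of all windows, the CArG box to which SRF binds in 0 and 1.47%, and TATAAA in 1 (Fos) and 12.4%. All motifs were searched on both strands, and the core is contained in the longer elements. GC content was 47.6% to 74.4% in the member windows, against a median of 52.4% over all windows, and the core was chosen for searching after the sequences had been read. The CArG box was searched in a strict form, within 250 bases alone, and not in Egr1 or Ier2. Its count of 0 therefore does not show that these genes lack SRF sites. A match is a description of these letters, and binding was not measured.

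**Figure D1:**
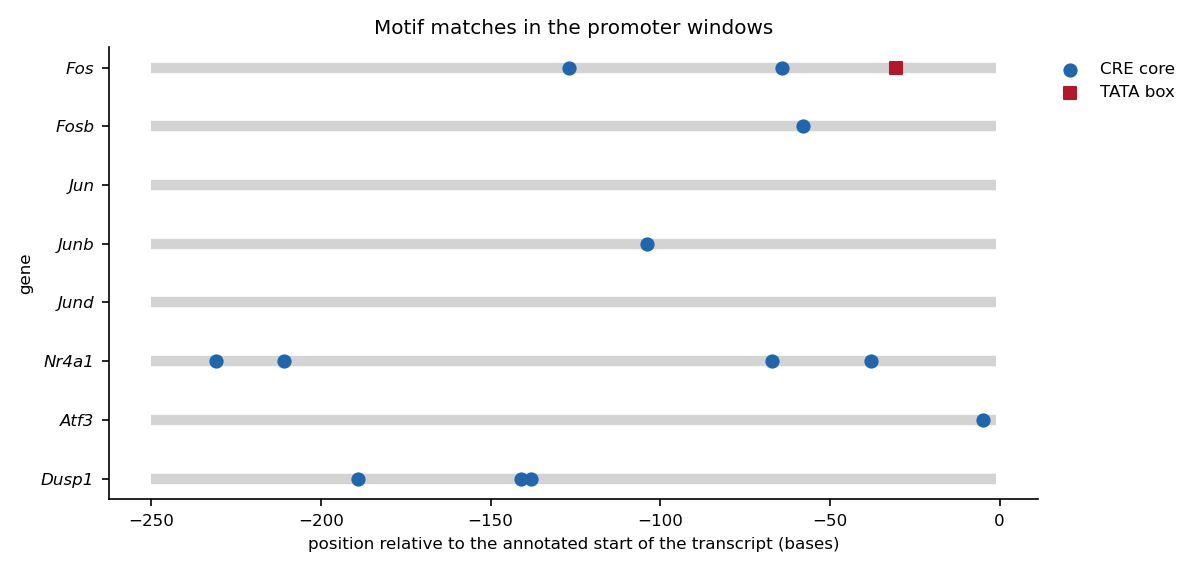
Motif matches in the 250 bases before the annotated start of 8 immediate early genes (rows), by position in bases from that start; circles are matches to the cyclic AMP response element core on either strand and squares are TATA box matches. Nr4a1 has 4 core matches, while the windows of Jun and Jund hold neither motif.

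All 10 genes differed among the 5 groups by limma's moderated F test with Benjamini-Hochberg adjustment over the 17097 genes (adjusted p between 7.9e-05 for Nr4a1 and 0.016 for Egr1). So did 47.8% of all genes, the background against which this count is read. GFP-negative cells had the highest mean for 9 of the 10 genes and Shh tumours for Jund. Myc secondary tumours had the lowest mean for Fos, Fosb, Jun, Jund, Ier2, Atf3 and Dusp1, Myc primary tumours for Egr1, and GFP-positive cells for Junb and Nr4a1. Few neighbours in these orders differed past the threshold (adjusted p below 0.05), namely GFP-positive cells over Myc primary tumours for Jun, and Shh tumours below GFP-negative cells and Myc secondary tumours above GFP-positive cells for Nr4a1. In bulk RNA, fewer cells of a type and less RNA per cell cannot be told apart.

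**Figure D2:**
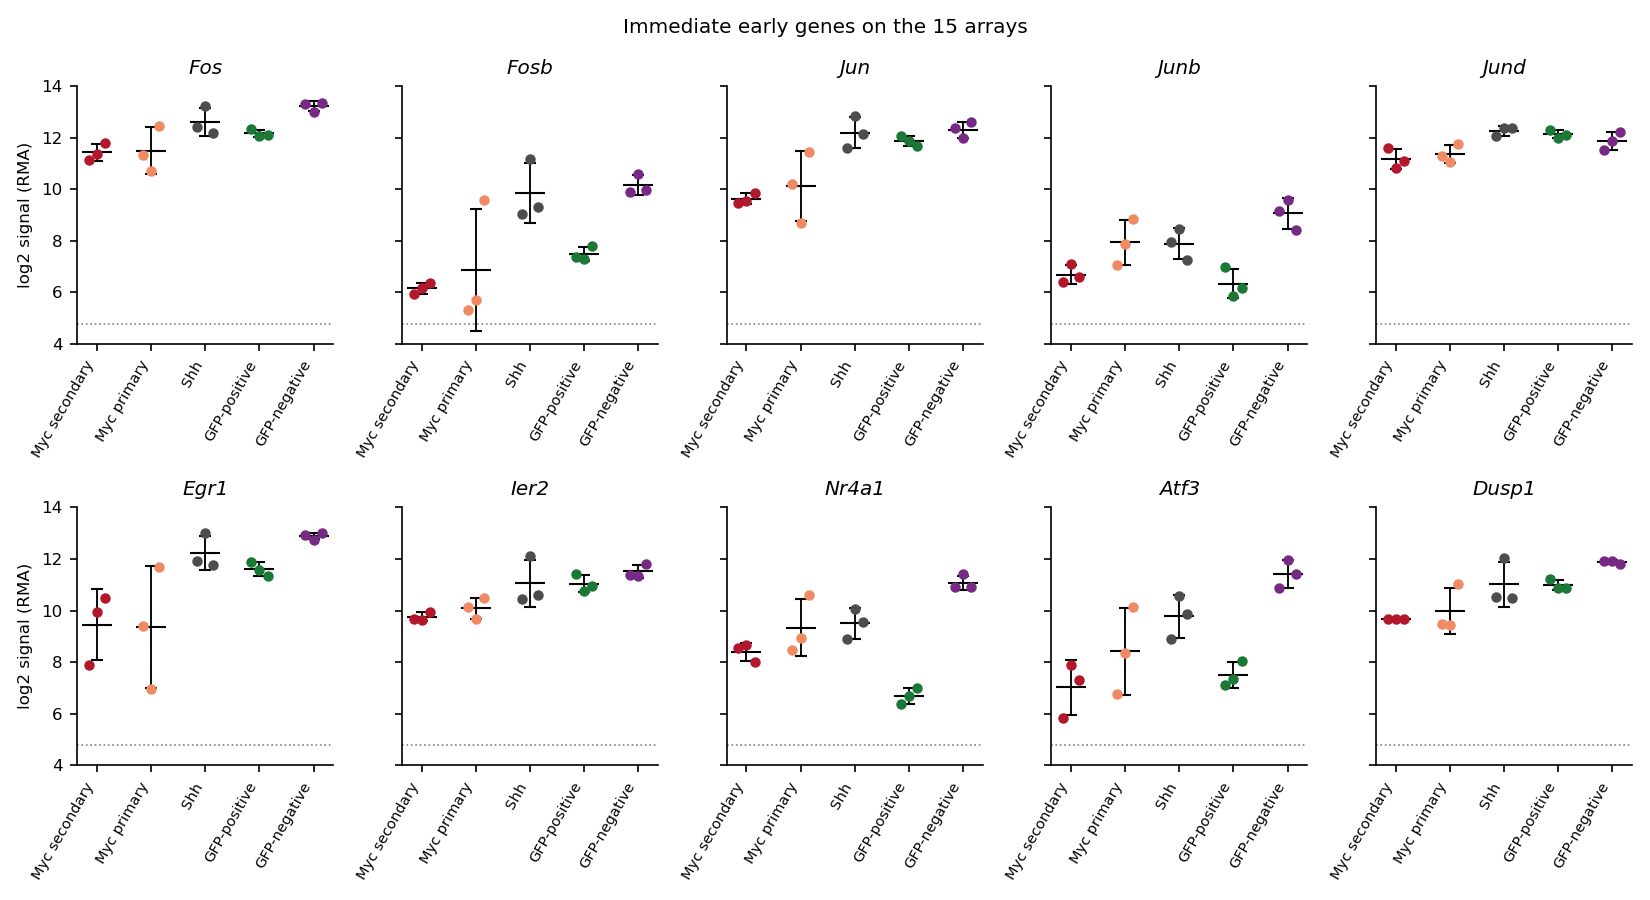
Log2 signal (vertical axes) of the 10 immediate early genes on the 15 arrays, 1 panel per gene and 1 point per array, with the group mean as a tick, its SD as an error bar and the background level of 4.77 dotted. Myc primary 3 lies above its group for every gene, and the GFP-negative arrays lie above the GFP-positive ones for 7 genes.

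Arrays of 1 group correlated at r = 0.962 to 0.995 over all genes, and no array repeated another. Myc secondary 1 (r = 0.962 with both others, against 0.994 between those) and GFP-negative 3 (0.963 and 0.966, against 0.983) stood apart from their groups. Myc primary 3 did not over all genes (0.971 and 0.970, against 0.974) and was singled out for its high values of the members and of oligodendrocyte markers, so that a count of members without it is chosen by their values. A fit without these 3 arrays was added after the data had been seen. The median gene of an array lay between 5.26 and 6.19, so that centring the arrays on it moved the median difference of all genes, in GFP-positive against GFP-negative cells to 0.54 from 0.04. Marker genes differed between the sorted populations. Granule neuron progenitor markers had a log2 summed signal of 12.73 to 12.86 in GFP-positive cells, against 10.73 to 11.06 in GFP-negative cells. Atoh1 and Barhl1 were below background in GFP-negative cells. Shh tumours had 12.41 to 12.60, so the progenitor markers cannot tell cerebellar cells from spontaneous tumour. Microglia markers had 7.17 to 7.70 in GFP-positive cells, with 0 of 10 above background, against 13.43 to 14.67 in GFP-negative cells, with 10 of 10 above it.

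Fos encodes the founding partner of Jun in AP-1. It read 11.14, 11.37 and 11.78 on the Myc secondary arrays, 11.33, 10.69 and 12.46 on the Myc primary arrays and 12.39, 13.22 and 12.19 on the Shh arrays. The GFP-positive arrays read 12.33, 12.06 and 12.11, and the GFP-negative arrays 13.31, 13.01 and 13.35. All 3 GFP-negative arrays were above all GFP-positive arrays, and all Myc secondary arrays below all Shh arrays, while Myc primary 3 reached into the Shh range.

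Fosb encodes a Fos relative best known in neurons for its lasting splice form. Its signal spanned a wider range, at 5.94, 6.15 and 6.36 in Myc secondary tumours, 5.31, 5.68 and 9.57 in Myc primary tumours and 9.04, 11.16 and 9.32 in Shh tumours. It was 7.38, 7.28 and 7.79 in GFP-positive cells, against 9.87, 10.60 and 9.97 in GFP-negative cells. A single Myc primary array reached the Shh tumours; the other 2 read below every array of every other group.

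Jun, the AP-1 subunit that binds DNA with Fos, read 9.47, 9.52 and 9.86 in Myc secondary tumours, 10.19, 8.70 and 11.42 in Myc primary tumours and 11.60, 12.82 and 12.15 in Shh tumours. GFP-positive cells read 12.06, 11.88 and 11.68, against 12.36, 11.97 and 12.59 in GFP-negative cells. Every Myc tumour array thus lay below every Shh and every sorted-cell array. Its second probe set gave the same order between tumours, at 8.16, 7.81 and 8.52 in Myc secondary, 8.47, 7.98 and 10.31 in Myc primary and 10.57, 12.34 and 11.51 in Shh tumours.

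Junb, a Jun relative that can dampen Jun activity, followed another order. It read 6.38, 7.09 and 6.57 in Myc secondary tumours, 7.07, 7.88 and 8.84 in Myc primary tumours and 7.93, 8.45 and 7.25 in Shh tumours. GFP-positive cells read 6.97, 5.85 and 6.17, against 9.15, 9.59 and 8.42 in GFP-negative cells. Jund, a Jun family member that most cells express without a stimulus, stayed between 10.83 and 12.37 over the 15 arrays, at 11.61, 10.83 and 11.07 in Myc secondary, 11.30, 11.06 and 11.74 in Myc primary and 12.04, 12.36 and 12.37 in Shh tumours. Its second probe set read 3.87 to 4.86, with every group mean below the background level,, so that no difference is read from it.

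Egr1, a zinc finger factor, read 7.88, 9.94 and 10.50 in Myc secondary tumours, 9.40, 6.95 and 11.70 in Myc primary tumours and 11.94, 13.00 and 11.77 in Shh tumours. In the sorted cells it was 11.90, 11.59 and 11.35 in GFP-positive cells, against 12.92, 12.75 and 13.00 in GFP-negative cells. Egr1 had the widest spread among the Myc primary arrays of the 10 genes, with an SD of 2.38. Ier2, a nuclear immediate early protein, read 9.66, 9.65 and 9.96 in Myc secondary, 10.14, 9.66 and 10.47 in Myc primary and 10.44, 12.12 and 10.59 in Shh tumours, and between 10.76 and 11.82 on the 6 sorted-cell arrays.

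Nr4a1, an orphan nuclear receptor, had the largest difference between the sorted populations of the 10 genes. It read 6.37, 6.69 and 6.99 in GFP-positive cells, against 10.91, 11.40 and 10.91 in GFP-negative cells. Tumours lay between them, at 8.54, 8.66 and 7.99 in Myc secondary, 8.48, 8.93 and 10.61 in Myc primary and 8.88, 10.06 and 9.57 in Shh tumours. No GFP-positive array reached the range of any other group.

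Atf3, a stress-induced bZIP factor, read 5.84, 7.90 and 7.30 in Myc secondary tumours, 6.76, 8.35 and 10.13 in Myc primary tumours and 8.90, 10.56 and 9.88 in Shh tumours. GFP-positive cells read 7.09, 7.35 and 8.04, against 10.89, 11.97 and 11.42 in GFP-negative cells. All GFP-negative arrays were above every other array. Dusp1, the MAP kinase phosphatase, read 9.67, 9.69 and 9.69 in Myc secondary, 9.48, 9.45 and 11.02 in Myc primary and 10.53, 12.03 and 10.50 in Shh tumours. It was 11.21, 10.88 and 10.86 in GFP-positive cells, against 11.94, 11.92 and 11.79 in GFP-negative cells.

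In Myc primary against Shh tumours, Fosb, Jun and Jund fell and no member rose. Fosb averaged 6.86 ± 2.36 in Myc primary and 9.84 ± 1.15 in Shh tumours (SD, n = 3 each), a difference of -2.98 ± 0.88 (SE; limma, adjusted p = 0.036). Jun averaged 10.11 ± 1.36 in Myc primary and 12.19 ± 0.61 in Shh tumours, a difference of -2.09 ± 0.51 (limma, adjusted p = 0.015), and its second probe set gave -2.55 ± 0.52 (limma over probe sets, adjusted p = 0.0058, where 14.6% of all probe sets were called). Jund differed by -0.89 ± 0.24 (limma, adjusted p = 0.023). These 3 of 10 falls stand against 7.33% of all genes that fell in this comparison and 15.8% that changed either way, and the members' median difference was -1.07, against 0.08 for all genes.

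Egr1 had a difference nearly as large as that of Fosb, -2.88 ± 0.93, yet missed the threshold (limma, adjusted p = 0.054), as did Fos with -1.10 ± 0.37 (limma, adjusted p = 0.066). Groups did not overlap for Jun, Jund and Egr1, 3 of 10, while 36.5% of all genes did not. For Junb the difference was 0.05 with a 95% interval of -0.96 to 1.06, and for Nr4a1 -0.17 with -1.16 to 0.83. The count rested on single arrays: 7 members were called without Myc primary 3, an array singled out for these genes, when Fos (-1.58), Egr1 (-4.06), Atf3 (-2.23) and Dusp1 (-1.55) passed as well, and 0 without Shh 2, when Fosb stood at -2.32, Jun at -1.77 and Jund at -0.84. Without Myc primary 1, Myc primary 2 or Shh 3, Jun alone was called, and the fit on the 6 arrays of these groups called 1 member. Of all 17097 genes, 2701 were called with all arrays. Without Myc primary 3 there were 2265, without Shh 2 1795, and in the fit on the 6 arrays 2319. With the mean of its probe sets Jund stood at -0.33 and was not called. Granule neuron progenitor markers moved with this comparison, all 6 measured being lower in Myc primary tumours (log2 sum 8.68 to 10.13) than in Shh tumours (12.41 to 12.60). Granule neuron markers fell as well (5 of 8), as did 1 of 8 oligodendrocyte and 1 of 5 GABAergic markers, while 3 of 10 endothelial and mural markers rose. Of 8 astroglial markers 3 fell and 1 rose, and of 7 fibroblast markers 1 fell and 2 rose. The part of any in the result was not tested.

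Myc secondary against Shh tumours gave falls for 8 members, all but Junb and Nr4a1, against 12.3% of all genes that fell and 22.8% that changed. Fosb had the largest difference, -3.69 ± 0.88, with 6.15 ± 0.21 in Myc secondary and 9.84 ± 1.15 in Shh tumours (SD, n = 3 each; limma, adjusted p = 0.0088). Jun followed with -2.57 ± 0.51 (limma, adjusted p = 0.003) and Jund with -1.09 ± 0.24 (limma, adjusted p = 0.0052). Egr1 fell by 2.79 (limma, adjusted p = 0.048) and Atf3 fell by 2.77 (limma, adjusted p = 0.018). Fos, Ier2 and Dusp1 fell by 1.17, 1.30 and 1.34. Groups did not overlap for any of the 10 members, as for 42.4% of all genes, and the median difference was -1.32, against 0.07 for all genes. The sample titles place these groups in different blocks of numbers, so block and group cannot be told apart here.

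Fosb, Jun and Jund kept their calls in Myc secondary against Shh tumours without any single array. The other 5 lost theirs without Shh 2, where Fos stood at -0.86, Egr1 at -2.41, Ier2 at -0.76, Atf3 at -2.38 and Dusp1 at -0.83, and also without Myc secondary 1, where they stood at -1.02, -2.01, -1.25, -2.18 and -1.33 in the same order. Fos, Egr1, Ier2 and Dusp1 also lost theirs without Myc secondary 2 (-1.14, -3.04, -1.25 and -1.34), Fos (-1.27) and Egr1 (-2.94) without Shh 1, Egr1 without Shh 3 (-3.02) and Dusp1 without Myc secondary 3 (-1.34). With arrays centred on their median gene, 4 members were called, and with the mean of its probe sets Jund stood at -0.27 and was not called. Over all genes the centred arrays gave 4953 calls, against 3897 as reported. The same progenitor markers were lower in Myc secondary tumours, all 6, with a log2 sum of 7.79 to 9.24 against 12.41 to 12.60 in Shh tumours. Also lower were 4 of 8 granule neuron, 3 of 8 astroglial, 2 of 8 oligodendrocyte and 1 of 5 GABAergic markers. Of 10 endothelial and mural markers 2 rose, and of 7 fibroblast markers 1 rose and 1 fell. In either Myc group against Shh tumours 0 of 10 microglia markers changed. The part of any of these lists in the result was not tested.

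Myc secondary against Myc primary tumours gave 0 of 10 calls by limma, where 0.719% of all genes were called, and 1 member, Junb, had an unadjusted p under 0.05. Junb had 6.68 ± 0.37 in Myc secondary and 7.93 ± 0.89 in Myc primary tumours (SD, n = 3 each), a difference of -1.25 with a 95% interval of -2.26 to -0.24 (limma, adjusted p = 0.27). Intervals of Fosb (-2.60 to 1.20) and Egr1 (-1.93 to 2.11) left room for differences of several fold. Groups overlapped for all 10 members, while 17.7% of all genes did not overlap.

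**Figure D3:**
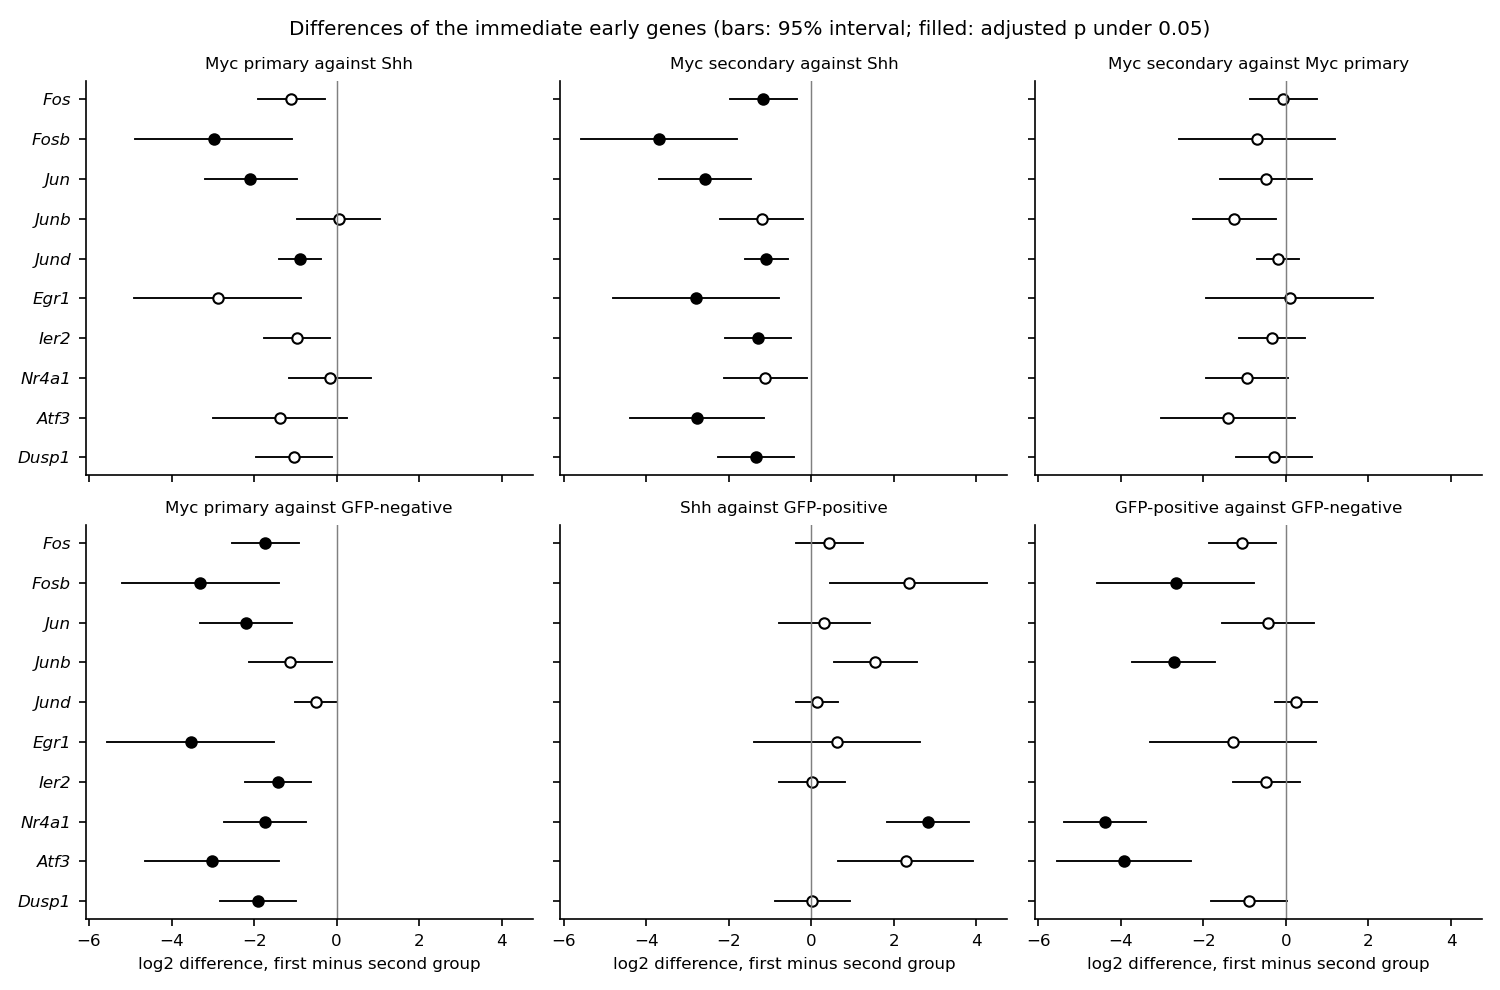
Log2 differences (horizontal axes) of the 10 immediate early genes in 6 comparisons, 1 panel each, first-named group minus second; bars are 95% intervals and filled points have an adjusted p below 0.05. Fosb, Jun and Jund are filled in both Myc against Shh panels, and 0 points are filled in Myc secondary against Myc primary.

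In GFP-positive against GFP-negative cells, Nr4a1, Atf3, Junb and Fosb fell, 4 of 10, against 13.8% of all genes that fell and 26.3% that changed. Nr4a1 averaged 6.68 ± 0.31 in GFP-positive and 11.07 ± 0.29 in GFP-negative cells (SD, n = 3 each), a difference of -4.39 ± 0.46 or 20.96-fold (limma, adjusted p = 1.6e-05). Atf3 averaged 7.49 ± 0.49 in GFP-positive and 11.42 ± 0.54 in GFP-negative cells, 15.26-fold apart (-3.93 ± 0.75; limma, adjusted p = 0.0017). Junb differed by -2.72 ± 0.47 (limma, adjusted p = 0.0008) and Fosb by -2.67 ± 0.88 (limma, adjusted p = 0.04).

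The other 6 members did not pass, though Fos was near with -1.06 ± 0.37 (limma, adjusted p = 0.054). Jun differed by -0.43 (95% interval -1.54 to 0.68), Ier2 by -0.48 (-1.28 to 0.33), Egr1 by -1.28 (-3.30 to 0.74), Dusp1 by -0.90 (-1.82 to 0.02) and Jund by 0.25 (-0.26 to 0.76). With centred arrays Jun stood at 0.07 and Ier2 at 0.02. Groups did not overlap for 7 members, as for 42.8% of all genes. Nr4a1, Atf3 and Junb kept their calls without any single array, and Fosb lost its call without any one of the 6 (-2.82 to -2.44). The fit on these 6 arrays alone called 7 members, and 4282 of all 17097 genes, against 4505 in the fit on all arrays. Among GFP-negative arrays these 4 genes, and no other member, were highest on GFP-negative 2, as were 25.3% of all genes. Highest there too were 10 of 10 microglia, 10 of 10 endothelial and 7 of 7 fibroblast markers. By contrast, 0 of 8 astroglial, 2 of 8 oligodendrocyte, 0 of 6 progenitor, 1 of 8 granule neuron, 1 of 5 GABAergic and 1 of 2 erythroid markers were. Between the populations, 10 of 10 microglia, 7 of 8 oligodendrocyte, 8 of 10 endothelial and mural, 6 of 8 astroglial, 5 of 7 fibroblast and 2 of 2 erythroid markers fell in GFP-positive cells. There 6 of 6 progenitor, 5 of 8 granule neuron, 2 of 5 GABAergic, 1 of 8 oligodendrocyte and 1 of 7 fibroblast markers rose. The part of these lists in the result was not tested.

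In Shh tumours against GFP-positive cells, Nr4a1 rose and no other member was called, against 4.63% of all genes that rose and 7.56% that changed. Nr4a1 averaged 9.51 ± 0.59 in Shh tumours and 6.68 ± 0.31 in GFP-positive cells (SD, n = 3 each), 2.82 ± 0.46 higher (limma, adjusted p = 0.0026), a call that held without any single array. Fosb, Atf3 and Junb, which also fell in GFP-positive against GFP-negative cells, had differences of 2.36 (limma, adjusted p = 0.14), 2.29 (limma, adjusted p = 0.087) and 1.55 (limma, adjusted p = 0.063); both comparisons use the GFP-positive arrays. Groups did not overlap for these 4 genes, as for 39.6% of all genes. All 4 passed in the fit on the 6 arrays of these groups and in the fit without Myc secondary 1, Myc primary 3 and GFP-negative 3. Calls over all 17097 genes rose in these fits as well, to 3148 and 2747, against 1292 as reported. Ier2 (0.01, 95% interval -0.79 to 0.82) and Dusp1 (0.03, -0.88 to 0.95) were centred near zero. Microglia markers moved with this comparison too, 6 of 10 rising in Shh tumours (log2 sum 9.44 to 10.18) over GFP-positive cells (7.17 to 7.70), a part that was not tested.

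Myc primary tumours against GFP-negative cells gave 8 falls, all but Junb and Jund, against 14.7% of all genes that fell and 33.8% that changed. Egr1 differed by -3.54 ± 0.93, Fosb by -3.30 ± 0.88, Atf3 by -3.01 ± 0.75 and Jun by -2.20 ± 0.51 (limma, adjusted p between 0.0049 and 0.011). Dusp1 (-1.90), Fos (-1.73), Nr4a1 (-1.73) and Ier2 (-1.43) had smaller differences. Groups did not overlap for 8 members, as for 40.9% of all genes. Fosb lost its call without Myc primary 1 (-2.52) or Myc primary 2 (-2.71) and Nr4a1 without Myc primary 1 (-1.30), while Junb gained one without Myc primary 3 (-1.58) or GFP-negative 3 (-1.44), and the fit on the 6 arrays of these groups called 4. That fit called 3999 of all 17097 genes, against 5772 in the fit on all arrays. Microglia markers, 10 of 10, were lower in Myc primary tumours (9.66 to 10.13) than in GFP-negative cells (13.43 to 14.67). So were 7 of 8 astroglial, 6 of 8 oligodendrocyte, 5 of 10 endothelial and mural and 2 of 2 erythroid markers, whereas 4 of 8 granule neuron markers were higher, and the part of any in the result was not tested.

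The remaining pairs came from the same fit. Against GFP-negative cells, all 10 members fell in Myc secondary tumours, where 18.0% of all genes fell and 37.4% changed, with Atf3 at -4.41 ± 0.75 (limma, adjusted p = 0.00046). Jund, at -0.70, lost its call there without Myc secondary 2 (-0.53), Myc secondary 3 (-0.65), GFP-negative 2 (-0.70) or GFP-negative 3 (-0.52), and stood at -0.03 with the mean of its probe sets. In Shh tumours Nr4a1 alone fell against GFP-negative cells, by 1.57 (limma, adjusted p = 0.022), where 29.0% of all genes changed. That call was lost without Shh 1 (-1.25) or GFP-negative 2 (-1.40), and 3 members were called without Shh 2, a fit whose count over all genes is not given here.

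Nr4a1 was higher in all 3 tumour groups than in GFP-positive cells. It rose by 2.66 ± 0.46 in Myc primary tumours (limma, adjusted p = 0.001), a call kept without any single array, and by 1.71 ± 0.46 in Myc secondary tumours (limma, adjusted p = 0.015), a call lost without Myc secondary 2 (1.58) or GFP-positive 1 (1.56). Junb rose as well in Myc primary tumours, by 1.60 ± 0.47 (limma, adjusted p = 0.023), and not without Myc primary 2 (1.62), Myc primary 3 (1.14), GFP-positive 2 (1.36) or GFP-positive 3 (1.52). Jun and Jund fell in both Myc groups against GFP-positive cells, by 1.77 and 0.75 in Myc primary tumours and by 2.26 and 0.95 in Myc secondary tumours. In Myc primary tumours the call of Jun was lost without Myc primary 1 (-1.81), Myc primary 2 (-1.07), GFP-positive 1 (-1.67) or GFP-positive 2 (-1.77), and that of Jund without any array of the pair but Myc primary 3 (-0.83 to -0.60). Ier2 and Dusp1 fell in Myc secondary tumours by 1.28 and 1.30, Ier2 not without Myc secondary 1 (-1.23), Myc secondary 2 (-1.23), GFP-positive 1 (-1.11) or GFP-positive 3 (-1.32) and Dusp1 not without any one of the 6 arrays (-1.36 to -1.19). These were 4 calls in Myc primary and 5 in Myc secondary tumours, where 24.8% and 25.3% of all genes were called. Without Myc primary 3, 7 members were called in Myc primary tumours, and the count over all genes in that fit is not given here.

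In Myc primary and in Shh tumours, 1 array was the highest of its group for most members. The other groups were more mixed. GFP-negative 2 was highest for 4 members and lowest for 4, and GFP-positive 3 was highest for 3 and lowest for 3. GFP-positive 1 was highest for 7 members, and Myc secondary 1 was lowest for 7. Myc primary 3 was the highest of its group for 10 of 10 members, by a median of 1.16 over the group mean (0.37 to 2.72), whereas it was highest for 31.1% of all genes, whose median deviation was -0.01. On that array 8 of 8 oligodendrocyte markers were highest as well, with a median deviation of 2.62 and log2 sums of 9.33, 7.87 and 12.57 on the 3 Myc primary arrays. So were 10 of 10 endothelial and mural markers (median deviation 0.96) and 6 of 7 fibroblast markers (0.83), but 0 of 10 microglia markers (0.06). Their part in the members' values was not tested.

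Shh 2 was the highest of its group for 9 of 10 members, all but Jund, by a median of 0.70 (0.10 to 1.32), and for 29.7% of all genes. There 9 of 10 microglia markers were highest, with a median deviation of 0.41 and log2 sums of 9.44, 10.18 and 9.71 on the 3 Shh arrays, beside 1 of 8 oligodendrocyte and 2 of 10 endothelial markers, and their part was not tested. The median SD of the members was 0.34 in Myc secondary, 1.01 in Myc primary and 0.64 in Shh tumours, and 0.27 in GFP-positive and 0.30 in GFP-negative cells. The median SD of all genes was 0.19, 0.20, 0.16, 0.12 and 0.29 in the same order, and the members' median was nearest to that of all genes in GFP-negative cells.

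**Figure D4:**
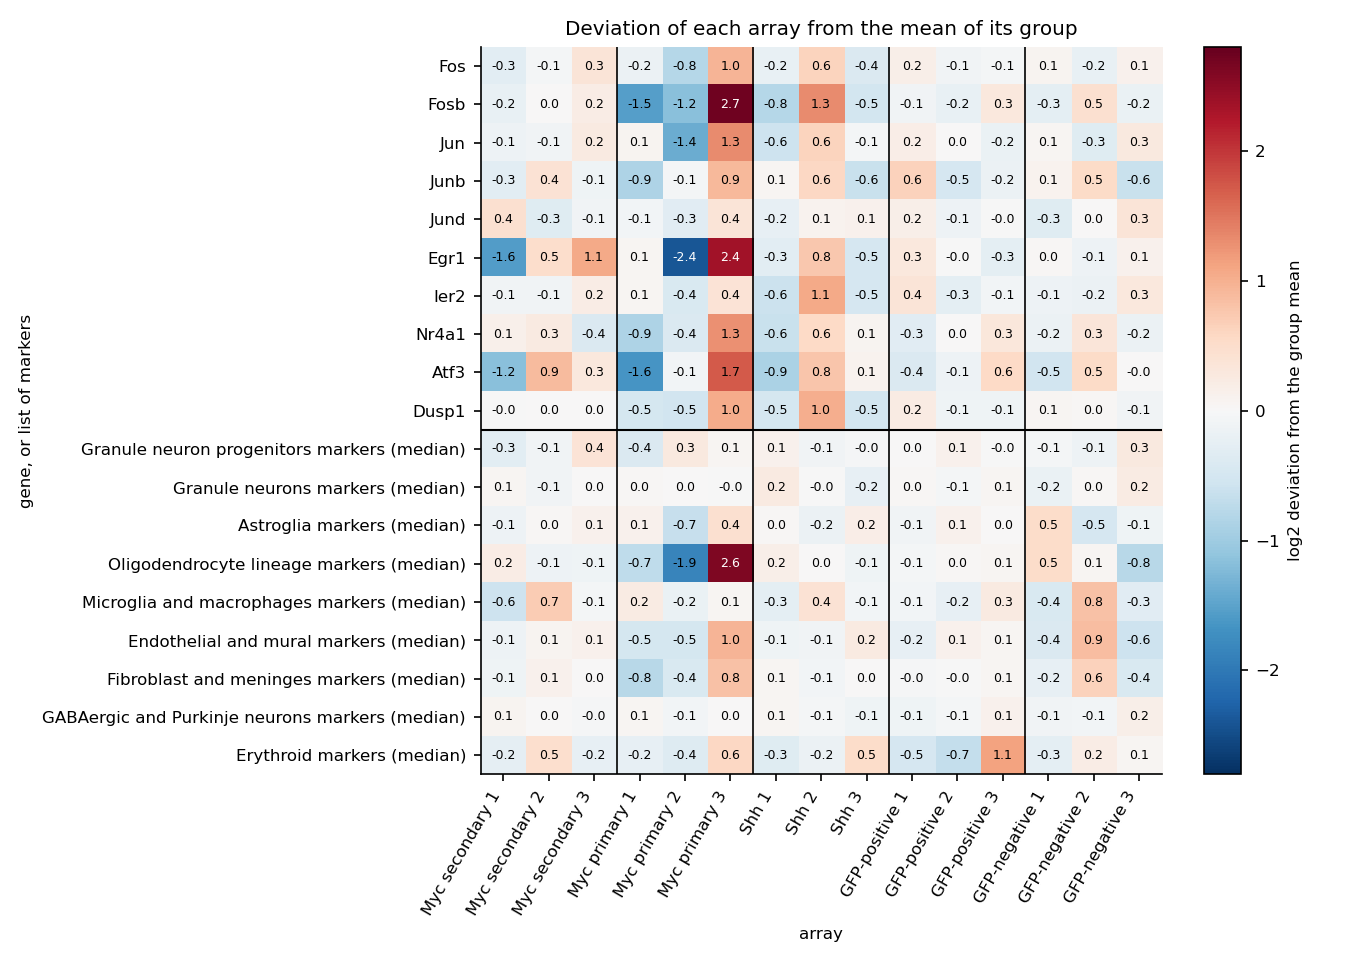
Deviation of each array (columns) from the mean of its group, in log2 units as colour, for the 10 immediate early genes and for the lists of cell type markers (rows). Myc primary 3 is above its group for every member and for the oligodendrocyte, endothelial and fibroblast markers, and Shh 2 is above its group for every member.

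All 45 pairs of members correlated positively over the 15 arrays (r = 0.04 to 0.95, median 0.74) and after subtraction of group means (0.03 to 0.92, median 0.59). The points share libraries and groups, so these values describe the arrays only. Outside the members, the genes most like their mean standardised profile over 15 arrays were Tmeff2 (r = 0.96), Tmcc3 (0.95), Pdlim3 (0.95), Egr2 (0.95), Adamts1 (0.94), 4931406C07Rik (0.93), Klf4 (0.92) and Apcdd1 (0.92). On deviations from the group means they were Klf4 (0.96), Ccn2 (0.92), Rgs3 (0.91), Pou3f3 (0.90), Sgk1 (0.89), Klf2 (0.89), Klf6 (0.88) and Kcnj8 (0.88). Klf4, a zinc finger factor, was the gene on both lists, with means of 6.95 in Myc secondary, 7.29 in Myc primary and 10.02 in Shh tumours, and of 6.68 in GFP-positive and 11.25 in GFP-negative cells.

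Of 7 relatives of Egr1 and Nr4a1 and their corepressors, 4 fell in Myc primary tumours against Shh tumours, where 7.33% of all genes fell, and 6 fell in Myc secondary tumours, where 12.3% did, and 0 rose. The median difference of the 7 was -1.20 in Myc primary and -1.80 in Myc secondary tumours (-1.67 with values under background set to it), against 0.08 and 0.07 for all genes. Nr4a3, an Nr4a1 paralog, differed by -2.45 ± 0.55 in Myc primary (limma, adjusted p = 0.0091) and by -3.28 ± 0.55 in Myc secondary tumours (limma, adjusted p = 0.00098), where its mean of 4.55 was below background and 1 of 3 arrays was above it. Egr2, an Egr1 paralog, differed by -2.58 ± 0.80 and -3.58 ± 0.80 in the same order, and Nr4a2 by -1.20 ± 0.32 and -1.66 ± 0.32. Nab2, a corepressor of Egr factors, averaged 4.33 in Myc secondary and 4.09 in Myc primary tumours, with 0 arrays above background, against 6.44 in Shh tumours, and was at least 3.18-fold lower in each Myc group. Such a bound is the mean of the brighter group over that of the dimmer one with each array below background set to that level. Nr4a3 (2.86), Nab2 (at least 3.18-fold) and Nr4a2 (1.28) were the 3 of 7 that rose in Shh tumours against GFP-positive cells, where 7.56% of all genes were called. Against GFP-negative cells 2 of 7 fell in GFP-positive cells (26.3% of all genes called) and 3 of 7 in Myc primary tumours (33.8%). The Nr4a3 and Nab2 calls against Shh tumours and against GFP-positive cells held without any single array, whereas the rise of Nr4a2 in Shh tumours was lost without any array of the pair but Shh 1. Without single arrays the count in Myc primary against Shh tumours ran from 2 to 4. Egr2 in Myc primary against Shh tumours was called only with all arrays or without Myc primary 3 (-3.59 to -1.87 over the arrays left out), and Nr4a2 lost its call there without Shh 2 or without the first or second Myc primary array (-1.54 to -0.94 over the arrays left out).

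AP-1 partners, 11 other genes whose proteins pair with or resemble Fos and Jun, had 1 call in Myc primary and 3 in Myc secondary tumours against Shh tumours, where 15.8% and 22.8% of all genes were called, with median differences of 0.05 and 0.13. In Myc primary against Shh tumours 1 rose, Batf3, by at least 1.23-fold with 0 Shh arrays above background, and 0 fell. In Myc secondary against Shh tumours Maff (-2.85), Fosl2 (-2.54) and Jdp2 (-2.06) fell, and 0 rose. Jdp2, a repressor of AP-1 sites, and Fosl2 rose in Shh tumours against GFP-positive cells, by 2.30 and 2.09. In GFP-positive against GFP-negative cells Jdp2, Mafk, Batf3 and Batf fell and Atf2, a Jun partner, rose by 0.66, with 0 GFP-positive arrays above background for Batf3 and Batf. In Myc primary tumours against GFP-negative cells Mafg rose and Batf fell, Batf with 0 Myc primary arrays above background. Atf4, Atf7 and Fosl1 changed in none of these comparisons, and the mean of Fosl1 was below background in each group of them. Jdp2 kept its calls without any single array, as did Fosl2 in Myc secondary against Shh tumours and Atf2, whereas Maff lost its call without Myc secondary 3 (range -3.50 to -2.33), Fosl2 in Shh tumours against GFP-positive cells without any array but Shh 3 (1.81 to 2.45), and the calls of Batf, Batf3, Mafk and Mafg were each lost without 3 arrays or more, and those of Batf, and of Batf3 between sorted cells, also without the 3 arrays named above. Without single arrays 0 to 4 of the 11 were called in Myc primary against Shh tumours, 0 to 2 in Myc primary tumours against GFP-negative cells, 1 to 2 in Shh tumours against GFP-positive cells and 2 to 5 in GFP-positive against GFP-negative cells.

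Of 33 further immediate early genes measured, 20 fell and 1 rose in GFP-positive against GFP-negative cells, where 13.8% of all genes fell and 26.3% changed, with a median difference of -1.67 (-1.46 with values under background set to it), against 0.04 for all genes. Nfkbiz, an NF-kappaB regulator, differed by -5.26, Bhlhe40 by -4.63 (GFP-positive mean 4.58, below background, with 1 of 3 arrays above it), Cebpb by -4.22, Plk2 by -3.30 and Zfp36l1, an RNA-binding protein of the tristetraprolin family, by -1.67. In Shh tumours against GFP-positive cells 8 rose and 0 fell, where 7.56% of all genes were called, and 2 to 7 were called when single arrays were left out. In Myc primary against Shh tumours 3 rose and 5 fell, where 15.8% of all genes were called, Zfp36l1 at -2.39 and Bhlhe40 at 1.77. In Myc secondary against Shh tumours 1 rose and 10 fell (22.8% of all genes called), and in Myc primary tumours against GFP-negative cells 1 rose and 12 fell (33.8%). The Bhlhe40 rise was lost without Shh 1, Shh 2 or either of Myc primary 2 and Myc primary 3 (1.21 to 2.57) and without the 3 arrays together, and the Zfp36l1 fall in GFP-positive cells without GFP-positive 3; without single arrays 3 to 12 of the 33 were called in Myc primary against Shh tumours.

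MAP kinase phosphatases and feedback inhibitors, the functional relatives of Dusp1, fell in 6 of 12 and rose in 2 of 12 in each Myc group against Shh tumours, where 22.8% of all genes were called in Myc secondary and 15.8% in Myc primary tumours, with median differences of -1.52 in Myc secondary and -1.20 in Myc primary tumours (-1.42 and -0.99 with values under background set to it). Dusp6, an ERK phosphatase, averaged 7.37 in Myc secondary, 7.09 in Myc primary and 10.52 in Shh tumours, with differences of -3.15 ± 0.50 (limma, adjusted p = 0.00071) and -3.44 ± 0.50 (limma, adjusted p = 0.00063). Spry2 (-3.0 and -1.83) and Dusp8 (-3.57 and -1.94) fell likewise in Myc secondary and Myc primary tumours, whereas Dusp2 rose by 1.91 and 1.88, and these 8 calls held without any single array. In GFP-positive against GFP-negative cells 6 of 12 fell, with Spry1 at -4.10 and Dusp2 at least 6.5-fold lower, 0 of its GFP-positive arrays being above background, and 1 rose, where 26.3% of all genes were called. Spry1 was the 1 gene that rose in Shh tumours against GFP-positive cells, though not without GFP-positive 3 (range 1.39 to 2.28), and 6 fell in Myc primary tumours against GFP-negative cells, where 33.8% of all genes were called.

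For the signalling steps above the members, 2 of 10 upstream kinases were called in Myc primary and 3 of 10 in Myc secondary tumours against Shh tumours, where 15.8% and 22.8% of all genes were called. Mapk10, a neuronal JNK, fell by 2.43 in Myc primary and 3.10 in Myc secondary tumours against Shh tumours, Map2k1 rose by 1.17 and 0.88, and Mapk8 fell in Myc secondary tumours by 1.18. In GFP-positive against GFP-negative cells Map2k1 fell by 1.21 and Mapk8 rose by 1.14 (26.3% of all genes called), a Mapk8 call lost without any one of the 6 arrays and with cyclic loess, in Myc primary tumours against GFP-negative cells Mapk10 fell by 1.80, and 0 changed in Shh tumours against GFP-positive cells. Of 13 upstream transcription factors 2 were called in Myc secondary and 1 in Myc primary tumours against Shh tumours. Srf (-1.10) and Elk3 (-1.47) fell in Myc secondary against Shh tumours, and Mef2a (-0.89) in Myc primary against Shh tumours. Elk3, an SRF partner, was also at least 14.82-fold lower in GFP-positive than in GFP-negative cells, with 0 GFP-positive arrays above background, and 2 of 13 fell there. In Shh tumours against GFP-positive cells 3 rose (7.56% of all genes called), Elk3 by at least 2.85-fold and Atf1 among them, but 0 to 2 were called without single arrays, Elk3 losing its call without 3 arrays and Atf1 without 4. In Myc primary tumours against GFP-negative cells 3 fell and Atf1 rose by 0.59 (33.8% of all genes called). The calls of Mapk10 and those of Elk3 against GFP-negative cells held without any single array, whereas Srf lost its call without Shh 3 (-1.24 to -0.82), Mef2a in Myc primary against Shh tumours without 3 arrays, Map2k1 in Myc primary against Shh tumours without 2, and Elk3, Map2k1 and Mapk8 in Myc secondary against Shh tumours without 5 each. The Elk3 call there was lost in 11 settings, with averaged or single probe sets, cyclic loess, centred arrays, only the 2 groups' arrays and removal of the 3 arrays among them. Without single arrays 1 to 3 kinases and 0 to 2 factors were called in Myc primary, and 1 to 4 and 0 to 4 in Myc secondary against Shh tumours.

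Heat shock and stress genes, which dissociation also induces, included genes that rose in both Myc groups. The metallothionein Mt1 averaged 12.21 in Myc secondary, 12.27 in Myc primary and 8.26 in Shh tumours, 3.95 ± 0.59 and 4.0 ± 0.59 higher in the Myc groups (limma, adjusted p = 0.00046 and 0.00067), and the chaperonin Hspe1 rose by 0.78 and 0.80. Of 11 such genes 2 rose and 1 fell in Myc primary (15.8% of all genes called), and 2 rose and 0 fell in Myc secondary tumours against Shh tumours (22.8%), with median differences of 0.08 and -0.18. In GFP-positive against GFP-negative cells 4 fell and 1 rose (26.3% of all genes called), with Mt1 at -5.96 and the inducible Hspa1b at -5.44, for which 1 of 3 GFP-positive arrays was above background. In Shh tumours against GFP-positive cells 5 rose (7.56% of all genes called), Mt1 by 2.83 and Bag3 by 1.62 among them, and 1 to 5 were called without single arrays. In Myc primary tumours against GFP-negative cells 4 rose and 1 fell (33.8%). The Mt1 calls between tumours and between sorted cells held without any single array; that of Mt1 in Shh tumours was lost without GFP-positive 1, and those of Hspe1 against Shh tumours without 3 arrays each. In Myc secondary against Myc primary tumours 0 genes of these 7 lists were called.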

How the data were processed

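The deposited values are the authors' log2 signals, made with Partek 6.5 and robust multi-array averaging (RMA) per the submitters' processing notes, and were used without further scaling. Of 45141 probe sets, 104 controls, 15588 without a gene and 551 with several genes were left out; 28689 of the other 28898 took their current symbol through the gene identifier (GRCm38.p6) and 209 kept the listed one. Each of 17097 genes was represented by its brightest probe set. Background was set at 4.77, below which 95 percent of the values of 23 nonspecific controls lay. Array medians over all probe sets lay between 4.637 and 4.89, and the settings of RMA are not given in the sources used here.

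Groups were compared with limma 3.58.1 (R 4.3.3) in one fit over the 5 groups of 3 arrays (10 residual and 2.54 prior degrees of freedom), two-sided, with Benjamini-Hochberg adjustment over all genes and calls at an adjusted p below 0.05. The fit was tested on simulated data. The number of arrays limits the precision, and no pairing, sex or batch is given in the labels, so that p-values cover variation among these arrays alone.

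The members, the 7 related lists, the 9 marker lists and the tests were chosen with earlier results of these data known. The text names all members, all AP-1 partners, up to 5 genes of each other list with the smallest F-test p, and the 8 genes most alike by each measure. Promoter windows came from RefSeq. The other settings tried were averaging the probe sets of a gene, testing each probe set, removing dim genes (2109 genes under 3.7, keeping 14988), cyclic loess, centred arrays, only the 2 groups' arrays, an intensity trend with robust variance, each array left out and, chosen after seeing the data, removal of 3 arrays (Myc primary 3, GFP-negative 3 and Myc secondary 1), of which Myc primary 3 was picked for its member values. Numbers in the sample titles have gaps that form blocks. Myc primary and Shh come first, GFP-negative 1 and 2 next, and the other arrays last. The labels do not call these blocks a batch. Myc primary and Shh tumours share a block, as do Myc secondary tumours and GFP-positive cells. GFP-negative 3 lies in the block of the latter, and GFP-negative 1 and 2 share theirs with no other group. In every other comparison, block and group cannot be told apart.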

Additional observations from a re-analysis of the deposited data

How the results depend on the processing

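All 10 members differed among the 5 groups under every alternative run (10 to 10 without single arrays). The 3 calls of Myc primary against Shh tumours became 5 with cyclic loess, 1 with only the 2 groups' arrays and 7 without the 3 arrays (Myc secondary 1, Myc primary 3 and GFP-negative 3) left out after seeing the data, and ran from 0 to 7 without single arrays. The 8 calls of Myc secondary against Shh tumours became 4 with centred arrays and 3 to 7 without single arrays. The 8 calls of Myc primary tumours against GFP-negative cells became 4 with only the 2 groups' arrays and 6 to 9 without single arrays. The 1 call of Shh tumours against GFP-positive cells became 2 with cyclic loess or an intensity trend and 4 with only the 2 groups' arrays or without the 3 arrays, and stayed at 1 to 1 without single arrays. The 4 calls of GFP-positive against GFP-negative cells became 7 with only the 2 groups' arrays and 3 to 3 without single arrays, and the 0 of Myc secondary against Myc primary tumours stayed at 0 to 0. The causes were not tested, beyond fewer arrays in the fit, and calls over all genes moved in these settings as well.

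Signs that turned belonged to differences that had not passed the test. In Myc primary against Shh tumours Junb stood at -0.41 without the 3 arrays, and without single arrays at -0.41 to 0.48 and Nr4a1 at -0.80 to 0.26. In Myc secondary against Myc primary tumours, centred arrays gave Fos 0.27, Jund 0.13 and Dusp1 0.03, the mean of its probe sets gave Jund 0.06, and leaving out the 3 arrays gave Fos 0.56, Fosb 0.76, Jun 0.25, Atf3 0.05 and Dusp1 0.22; without single arrays Fos ran from -0.46 to 0.42, Fosb from -1.47 to 0.66, Jun from -1.19 to 0.17, Egr1 from -1.11 to 1.27 and Dusp1 from -0.57 to 0.22. In Shh tumours against GFP-positive cells, centred arrays gave Jund -0.15, Ier2 -0.28 and Dusp1 -0.26, cyclic loess gave Ier2 -0.04 and Dusp1 -0.02, and single arrays moved Ier2 over -0.52 to 0.32 and Dusp1 over -0.47 to 0.30. In GFP-positive against GFP-negative cells, centred arrays gave Jun 0.07 and Ier2 0.02. Of 90 calls of named genes in the related lists, 54 were kept under every alternative and 30 were lost without at least 1 array.

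Over all genes, centring shifted the median difference by up to 0.50 and with it the split of calls. Higher calls made up 82.3% of calls in GFP-positive against GFP-negative cells with centred arrays and 30.7% with cyclic loess (47.7% as reported), 72.9% centred in Myc secondary against Shh tumours (46.1%), 77.7% and 19.3% in Myc secondary against Myc primary tumours (35.8%), 67.8% and 44.1% in Myc primary tumours against GFP-negative cells (56.5%) and 32.3% centred in Shh tumours against GFP-positive cells (61.3%). Calls over all genes moved by over 1.5 times in GFP-positive against GFP-negative cells (4505, centred 9128), in Myc primary against Shh tumours (2701, from 1795 without Shh 2 to 4073 without the 3 arrays), in Shh tumours against GFP-positive cells (1292, from 665 without GFP-positive 1 to 3148 with only these arrays) and in Myc secondary against Myc primary tumours (123, from 1 with only these arrays to 284 without the 3 arrays). No paired analysis was possible because the labels give no replicate numbers that groups share. With 3 arrays a group, signal over background limits Nab2, Fosl1, Batf3, Batf, Elk3, Bhlhe40, Dusp2, Nr4a3, Egr4, Hspa1b and the second Jund probe set, among others.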
